A study of Mus musculus with 18 samples.

Results

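The arrays described here measured cerebellar granule neurons (CGN) that differentiated in culture while the histone methyltransferase DOT1L was blocked by the small molecule SGC0946 for 44 h. They were chosen by their labels as the CGN arrays whose title and description name the same treatment. These are 4 of the 6 CGN arrays and 4 of the 18 arrays of the series, namely HB4 and HB6 with SGC0946 and HB1 and HB3 with the solvent DMSO. On the remaining CGN arrays, HB2 and HB5, the title contradicts the description as to treatment, and neither entered a comparison. All CGN came from cerebella of wild-type NMRI mice and were grown with fetal bovine serum, and material of several wells was pooled for an array. The study's methods give an age of P7 and addition of the inhibitor 4 h after plating at 5 µM, where the labels write 5 mM and SGC09446. Beyond the CGN, the series holds 6 arrays of granule neuron progenitors (CGNP) from P7 NMRI mice, 3 treated for 4 h with SGC0946 and 3 with DMSO. By the labels these came from 2 mice, both treatments sharing them and 1 array of each treatment holding both. It also holds 3 cerebella of P3 mice with Dot1l f/f and Atoh1-Cre (Dot1l-cKO), which deletes Dot1l in the granule cell lineage, and 3 control cerebella of the same age with Dot1l f/f and wild-type Atoh1, on the C57BL6/J background by the study's methods. The question was which transcripts differ when DOT1L activity is lost during differentiation.

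DOT1L is the enzyme that methylates lysine 79 of histone H3 in the body of transcribed genes, and it acts in complexes with the AF9, AF10 and ENL proteins. SGC0946 competes with the methyl donor S-adenosylmethionine for its catalytic pocket. Granule neurons are the small glutamatergic neurons of the cerebellum, which leave the cell cycle, extend axons and build synapses while they mature, and in culture their calcium influx drives a programme of activity-regulated genes. Neurons and glia also make their own cholesterol, by a pathway that the transcription factor SREBP2 switches on when membrane sterol is low.

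By the labels the 2 treatments also differed in time in culture and partly in age. The field for days in vitro reads 5 for HB4 and 7 for HB6, and 2 for HB1 and 4 for HB3. It rises with the array number, whereas every description gives day 1. The labelled age is P9 for HB6 and P7 for the other arrays compared. If these fields hold, treatment and days in culture cannot be told apart in this comparison. The arrays gave log2 signals per transcript cluster, and 22180 genes were tested, each through 1 cluster. The median signal was 4.94 and 5.03 in the SGC0946 arrays and 4.97 and 5.03 in the DMSO arrays. Eif2s3y, a gene of the Y chromosome, read 6.22 in HB4 and 3.76 in HB6 with SGC0946, and 6.39 in HB1 and 4.17 in HB3 with DMSO, so each treatment held 1 array with high and 1 with low Y-linked signal. The 12 granule neuron markers averaged 9.55 and 9.72 with SGC0946 and 9.69 and 9.62 with DMSO. Dot1l itself, whose activity rather than transcript is the target of the inhibitor, read 8.25 and 8.06 with SGC0946 and 8.72 and 8.54 with DMSO (log2 change -0.47, SE 0.15, adjusted p = 0.394).

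Sterol and lipid synthesis genes led the transcripts that rose under SGC0946, and those that fell included Fos, Npas4 and other activity-regulated genes. Of 22180 genes, 14 were higher (0.0631%) and 20 lower (0.0902%) at an adjusted p below 0.05 (limma, Benjamini-Hochberg, 2 arrays per treatment, spread shared with the CGNP arrays). Of the 14, 12 belong to the sterol and lipid lists. These hold 7 mevalonate, 11 sterol ring, 16 regulator and 19 fatty acid and phospholipid genes of the 22180. Of the 20, 4 belong to the activity-regulated lists, which hold 43 genes, 1 to a sterol or lipid list and 14 to no list. Those that rose did so by 1.48-fold to 2.93-fold, and those that fell did so by 1.63-fold to 4.36-fold. In all 34 the SGC0946 and DMSO arrays did not overlap. Selection by a test on these same arrays favours that pattern, so it adds no support. Over all genes 17.0% showed it upward and 17.1% downward. At the unadjusted p of at most 0.05 used by the study, 753 genes were higher (3.39%) and 905 lower (4.08%). With a fold of at least 1.5 added, 156 were higher (0.703%) and 354 lower (1.6%). Over all genes 48.7% had a higher and 51.3% a lower mean with SGC0946, and the median change was -0.01, with a median standard error of 0.177.

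**Figure D1:**
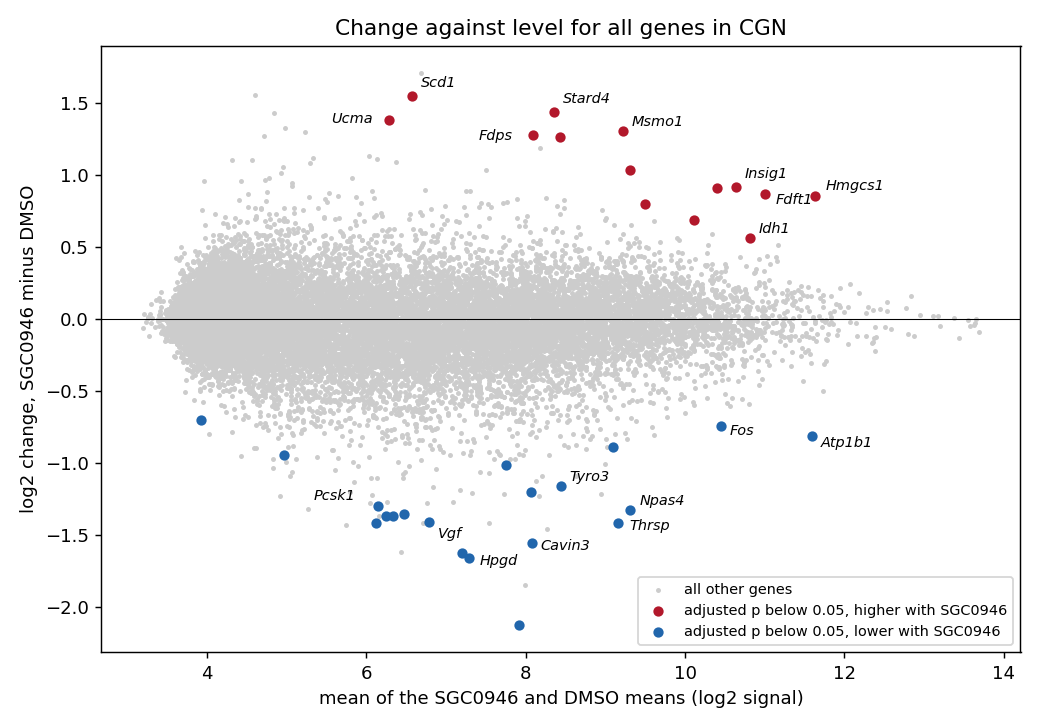
Each point is a gene, with the mean of its SGC0946 and DMSO means (log2 signal) on the x axis and its log2 change, SGC0946 minus DMSO, on the y axis. The 14 genes past the adjusted test upward are red, and Msmo1, Insig1, Fdft1 and Hmgcs1 among them lie well above most genes of similar signal. The 20 past it downward are blue.

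The count of called genes moved with single arrays. Without HB6, 77 genes were higher and 180 lower, without HB4 10 and 4, without HB1 8 and 4, and without HB3 13 and 17. Leaving out single CGNP arrays gave 9 to 20 higher and 8 to 29 lower. The 3 CGNP arrays per treatment, which lend their spread, entered as separate replicates although they came from 2 mice, and without those that hold both mice 10 genes were higher and 7 lower, all among the 34. All 34 kept their direction in each of these fits. When the spread was taken from the 4 CGN arrays alone, no gene passed in either direction, although 522 were higher and 630 lower at the unadjusted cut-off. With the labelled days in vitro as a term, 25 genes were higher and 94 lower, and 9 of the 14 and 2 of the 20 genes still passed. That term is estimated from HB1 against HB3 and HB4 against HB6 and extended across the gap between treatments, so it cannot separate days from treatment.

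Cholesterol is made from acetyl-CoA through mevalonate and squalene, and the ring-shaped lanosterol is then trimmed to cholesterol. Of the 7 measured mevalonate pathway genes 3 rose, none fell, and the median log2 change was 0.87, against -0.01 over all genes. Of the 11 measured sterol ring enzymes 5 rose, none fell, and the median was 0.78. The SGC0946 arrays lay above the DMSO arrays without overlap for 6 of these 7 and 10 of these 11 genes, or 85.7% and 90.9%, where the share over all genes was 17.0%. Hmgcs1, which makes HMG-CoA, read 12.10 and 12.02 with SGC0946 and 11.24 and 11.17 with DMSO. Both SGC0946 arrays were higher and the replicates lay close together (log2 change 0.86, SE 0.09, adjusted p = 0.0023). Mvk (1.04) and Mvd (1.19), the next kinase and the decarboxylase, had adjusted p of 0.0636 and 0.0763, and Pmvk between them changed by 0.05. Fdps, which makes farnesyl diphosphate, read 8.54 and 8.93 with SGC0946 and 7.38 and 7.53 with DMSO (log2 change 1.28, SE 0.15). Ggps1, which leads to protein prenylation instead of sterols, changed by 0.25 (SE 0.16, adjusted p = 0.809). Fdft1, the squalene synthase, read 11.41 and 11.47 with SGC0946 and 10.71 and 10.42 with DMSO (log2 change 0.87, SE 0.10). The first steps of the pathway thus held genes with clear separation and others, Pmvk and Ggps1, with little.

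Among the enzymes that act on squalene and the ring, Sqle, the squalene epoxidase, rose 1.74-fold, with 9.92 and 9.87 with SGC0946 and 9.06 and 9.13 with DMSO. Lss, the lanosterol synthase, read 9.12 and 9.01 with SGC0946 and 7.77 and 7.83 with DMSO (log2 change 1.27, SE 0.17, adjusted p = 0.00524). Cyp51, which removes a methyl group from lanosterol, read 10.89 and 10.82 with SGC0946 and 9.96 and 9.93 with DMSO (log2 change 0.91, SE 0.10). For each of these enzymes the difference between treatments was several times that between replicates. Msmo1, a sterol oxidase, read 10.05 and 9.69 with SGC0946 and 8.78 and 8.35 with DMSO (log2 change 1.30, SE 0.15). Nsdhl, the dehydrogenase that follows it, read 9.50 and 10.14 with SGC0946 and 8.89 and 8.69 with DMSO (log2 change 1.03, SE 0.17). Their replicates were further apart, without overlap of the treatments. The remaining ring enzymes did not pass the test. Hsd17b7 (0.78), Lbr (0.72), Sc5d (0.70), Dhcr7 (0.62) and Tm7sf2 (0.41) had positive log2 changes without overlap of the arrays, and Ebp, the sterol isomerase, had -0.38 with overlapping arrays.

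**Figure D2:**
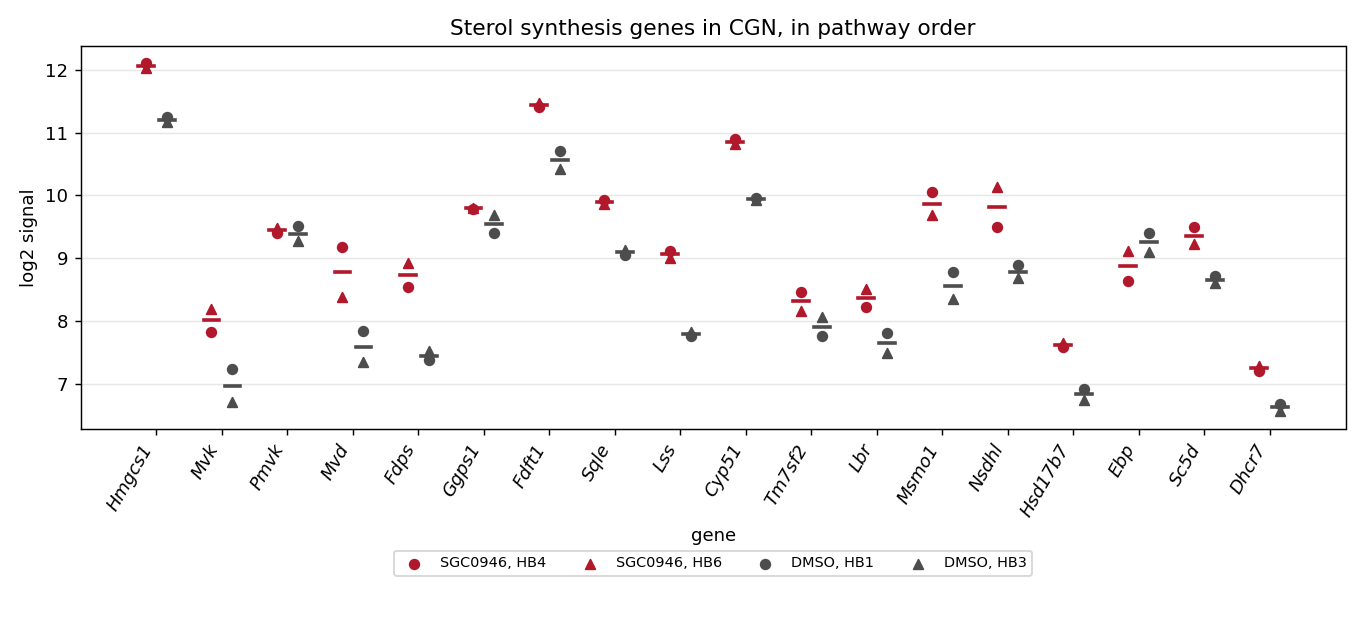
Log2 signal (y axis) of 18 sterol synthesis genes in pathway order (x axis), with SGC0946 arrays in red left of DMSO arrays in grey, 1 point per array and a bar at the mean of each pair. The pairs are apart for 16 of the 18 genes upward, and Pmvk and Ebp overlap.

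Because these genes moved together, their promoters were read from RefSeq (GRCm38.p6, 250 bases before to 50 after the start of the gene). Genes of this pathway are known to be bound by SREBP together with NF-Y, whose box is CCAAT. On either strand the 5 letters CCAAT occur in 37.7% of the 20611 promoters of tested genes, and in those of all 15 mevalonate and sterol ring genes that had an entry. These include Pmvk, Ggps1 and Ebp, with changes of 0.05, 0.25 and -0.38, so the box was not limited to genes that rose. The sterol regulatory element searched, TCACNCCAC on either strand, occurs in 1.22% of all promoters and in 1 of these 15, that of Hmgcs1. The units differ, since the 20611 promoters belong to 16990 genes and each was counted. In a set of genes, a gene counted once if any of its promoters matched, which can raise the share of the set. A match describes the letters only and is no evidence of binding. The promoters below are those of 5 genes that rose, with matches to both motifs in capitals (CCAAT, or ATTGG on the other strand, and TCACNCCAC), at Hmgcs1 chr13:119690101-119690400 (+ strand), Cyp51 chr5:4104648-4104947 (- strand), Insig1 chr5:28071162-28071461 (+ strand), Lss chr10:76531355-76531654 (+ strand) and Msmo1 chr8:64733529-64733828 (- strand). Hmgcs1 holds 5 matches and Msmo1 holds 3, and the others hold 1 each.
Hmgcs1: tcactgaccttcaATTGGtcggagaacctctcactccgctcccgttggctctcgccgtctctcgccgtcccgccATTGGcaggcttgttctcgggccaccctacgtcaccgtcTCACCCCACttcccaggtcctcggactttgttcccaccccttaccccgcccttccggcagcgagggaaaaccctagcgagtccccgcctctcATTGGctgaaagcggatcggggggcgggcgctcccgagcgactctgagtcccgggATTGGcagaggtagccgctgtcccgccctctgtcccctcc
Cyp51: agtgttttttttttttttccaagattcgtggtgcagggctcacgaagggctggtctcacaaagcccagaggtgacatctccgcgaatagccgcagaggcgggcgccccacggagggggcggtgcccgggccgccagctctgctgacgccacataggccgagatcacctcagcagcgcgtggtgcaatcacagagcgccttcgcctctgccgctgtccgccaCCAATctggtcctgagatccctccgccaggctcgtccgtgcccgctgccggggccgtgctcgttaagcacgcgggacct
Insig1: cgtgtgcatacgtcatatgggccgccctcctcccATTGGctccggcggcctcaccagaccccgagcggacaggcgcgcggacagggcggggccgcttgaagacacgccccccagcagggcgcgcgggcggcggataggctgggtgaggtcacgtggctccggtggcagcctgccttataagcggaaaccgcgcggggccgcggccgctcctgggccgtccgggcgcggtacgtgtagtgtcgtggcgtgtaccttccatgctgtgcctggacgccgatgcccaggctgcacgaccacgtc
Lss: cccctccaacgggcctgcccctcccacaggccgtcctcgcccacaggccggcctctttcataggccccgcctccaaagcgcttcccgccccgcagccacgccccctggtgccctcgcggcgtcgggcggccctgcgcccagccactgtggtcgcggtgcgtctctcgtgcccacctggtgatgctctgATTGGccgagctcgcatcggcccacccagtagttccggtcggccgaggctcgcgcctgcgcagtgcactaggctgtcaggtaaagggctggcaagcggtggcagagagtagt
Msmo1: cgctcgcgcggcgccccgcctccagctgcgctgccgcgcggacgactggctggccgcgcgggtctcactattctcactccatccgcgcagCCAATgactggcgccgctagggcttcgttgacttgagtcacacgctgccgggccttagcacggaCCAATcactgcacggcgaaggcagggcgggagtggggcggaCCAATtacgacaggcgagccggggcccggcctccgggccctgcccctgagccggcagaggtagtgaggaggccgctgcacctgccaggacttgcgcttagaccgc

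The regulators of the pathway were measured in 16 genes, of which 2 rose and none fell (median log2 change 0.20, or 0.01 without HB1 and 0.04 without HB6). With the labelled days in vitro as a term the median was -0.27. Insig1, which retains SREBP in the endoplasmic reticulum and is itself an SREBP target, read 11.14 and 11.07 with SGC0946 and 10.22 and 10.14 with DMSO (log2 change 0.92, SE 0.10, adjusted p = 0.0023). Stard4, which carries cholesterol between membranes, read 9.30 and 8.83 with SGC0946 and 7.68 and 7.58 with DMSO (log2 change 1.44, SE 0.17). Srebf2, which encodes SREBP2, read 10.15 and 9.95 with SGC0946 and 9.65 and 9.55 with DMSO, and its change of 0.45 did not pass (adjusted p = 0.244). Nfyb, a subunit of NF-Y, had 0.83 (adjusted p = 0.106) and Npc2, a lysosomal cholesterol carrier, 0.38. Genes for the export of cholesterol and targets of the sterol receptor LXR lay on the other side of zero. Of 9 measured, 8 had a lower mean with SGC0946, as had 51.3% of all genes, with a median of -0.31 and none past the test. The median was -0.12 without HB4, -0.15 without HB3 and -0.52 without HB6. Ch25h, which hydroxylates cholesterol to a ligand of LXR, read 6.50 and 6.40 with SGC0946 and 7.95 and 7.49 with DMSO (log2 change -1.27, SE 0.23, adjusted p = 0.0512).

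Of 19 fatty acid and phospholipid synthesis genes 2 rose and 1 fell, and the median was 0.38. Scd1, the desaturase that makes oleate, had the largest fold change among the genes that rose. It read 7.29 and 7.41 with SGC0946 and 6.04 and 5.55 with DMSO (log2 change 1.55, SE 0.19, adjusted p = 0.00272), with the reservation that its relatives are similar in sequence and may share probes. Fasn, the fatty acid synthase, read 10.61 and 10.32 with SGC0946 and 9.86 and 9.69 with DMSO (log2 change 0.69, SE 0.12). Fads1 and Fads2, which desaturate polyunsaturated chains, had 0.55 and 0.46 with adjusted p of 0.0704 and 0.086. Thrsp, a regulator of lipogenesis responsive to thyroid hormone, went the other way. It read 8.43 and 8.46 with SGC0946 and 10.11 and 9.62 with DMSO (log2 change -1.42, SE 0.19, adjusted p = 0.00524). Outside these lists, Idh1, a cytosolic source of NADPH, and Ucma, a secreted protein known from cartilage, also rose. Idh1 rose 1.48-fold, and Ucma read 7.12 and 6.84 with SGC0946 and 5.80 and 5.39 with DMSO (2.61-fold).

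The genes that fell included several that neurons transcribe on calcium influx. Of 20 measured immediate early transcription factors 2 fell and none rose, with a median of -0.06, and at the unadjusted cut-off 7 were lower and 1 higher, where all genes had 4.08% lower and 3.39% higher. Of 23 activity-regulated effectors 2 fell and none rose, with a median of -0.30, and 21 of the 23 had a lower mean with SGC0946, against 51.3% of all genes. Npas4, a neuronal factor that controls inhibitory synapses, read 8.47 and 8.83 with SGC0946 and 10.15 and 9.82 with DMSO (log2 change -1.33, SE 0.18, adjusted p = 0.005). Fos read 10.10 and 10.05 with SGC0946 and 10.86 and 10.77 with DMSO (log2 change -0.74, SE 0.11, adjusted p = 0.00841). Both SGC0946 arrays were below both DMSO arrays for each gene. Nuclear receptors of the same class did not pass: Nr4a3 had -1.23 and Nr4a1 -0.97, both with an adjusted p of 0.0704. Ier5 had a positive change of 0.57 (adjusted p = 0.376). Among effectors, Pcsk1, the convertase that cuts prohormones, read 5.55 and 5.46 with SGC0946 and 6.99 and 6.61 with DMSO (log2 change -1.30, SE 0.22, adjusted p = 0.04). Vgf, a secreted neuropeptide precursor that is cut by such enzymes, read 5.86 and 6.30 with SGC0946 and 7.25 and 7.72 with DMSO (log2 change -1.41, SE 0.25, adjusted p = 0.0448). Rgs4, which shortens G protein signalling, read 6.30 and 7.35 with SGC0946 and 8.05 and 8.43 with DMSO, and its change of -1.42 did not pass, with SGC0946 replicates far apart (SE 0.32, adjusted p = 0.125). Per1 (-0.70) and Nrn1 (-0.41) also lay lower without overlap, as did 17.1% of all genes.

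The same promoter search was made for the cyclic AMP response element (CRE), through which CREB acts on many of these genes. Its core TGACG, on either strand, occurs in 24.2% of all promoters and in 26 of the 33 immediate early and activity-regulated genes with an entry, or 78.8%. Again the share over all is per promoter and that of a set is per gene with any match. The full palindrome TGACGTCA, which holds the core on both strands, occurs in 2.32% of all promoters and in 5 of the 33. Among the 18 genes with an entry that fell, 7 hold the core (38.9%). So do 4 of the 9 that rose (44.4%) and 7 of the 15 mevalonate and sterol ring genes (46.7%). Shown are 3 that fell, with core matches in capitals (TGACG, or CGTCA on the other strand), at Fos chr12:85473640-85473939 (+ strand), Npas4 chr19:4989922-4990221 (- strand) and Pcsk1 chr13:75089607-75089906 (+ strand).
Fos: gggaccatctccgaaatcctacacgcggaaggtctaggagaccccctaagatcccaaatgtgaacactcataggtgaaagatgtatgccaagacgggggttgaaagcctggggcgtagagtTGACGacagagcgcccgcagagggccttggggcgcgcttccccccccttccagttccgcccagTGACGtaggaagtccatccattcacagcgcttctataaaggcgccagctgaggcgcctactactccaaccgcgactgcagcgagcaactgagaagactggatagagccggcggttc
Npas4: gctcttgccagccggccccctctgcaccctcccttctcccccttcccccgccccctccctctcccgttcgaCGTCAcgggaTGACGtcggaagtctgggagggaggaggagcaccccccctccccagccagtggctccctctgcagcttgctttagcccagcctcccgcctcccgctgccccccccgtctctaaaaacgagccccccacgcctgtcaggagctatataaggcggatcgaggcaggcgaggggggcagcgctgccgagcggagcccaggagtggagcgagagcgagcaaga
Pcsk1: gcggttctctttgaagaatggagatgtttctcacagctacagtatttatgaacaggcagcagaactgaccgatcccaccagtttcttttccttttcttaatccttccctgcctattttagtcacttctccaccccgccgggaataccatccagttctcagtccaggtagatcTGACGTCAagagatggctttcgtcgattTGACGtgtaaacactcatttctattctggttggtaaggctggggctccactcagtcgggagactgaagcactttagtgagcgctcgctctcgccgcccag

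**Figure D3:**
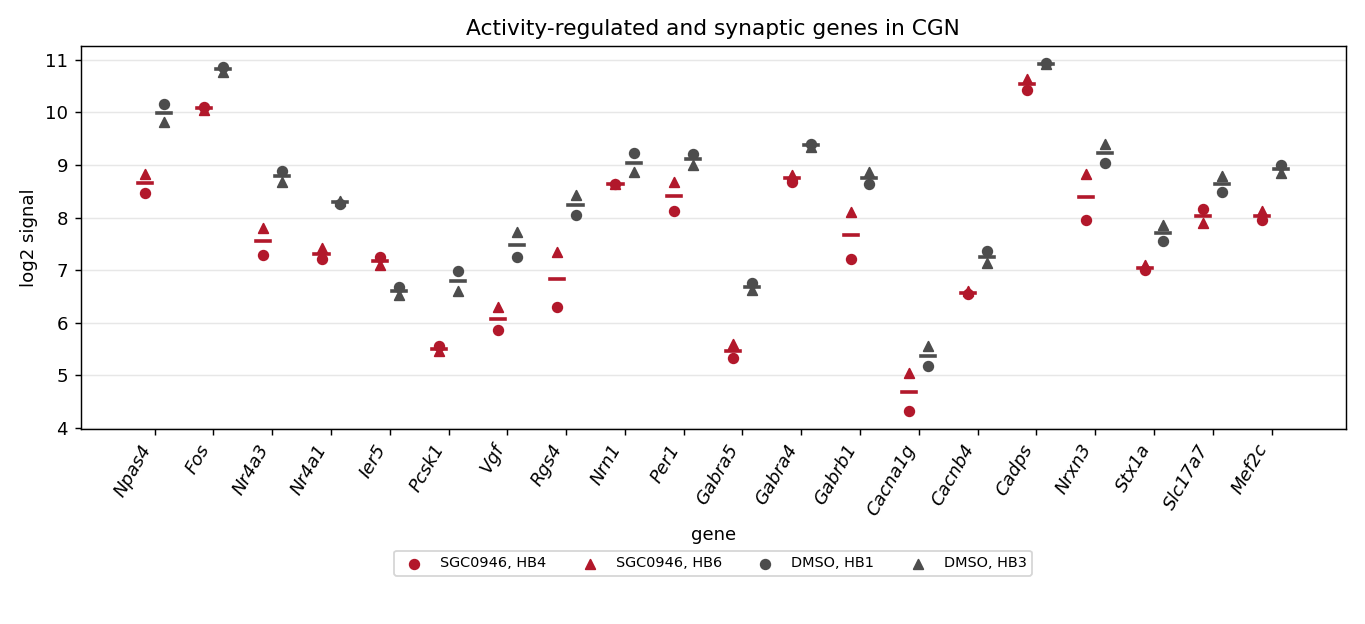
Log2 signal (y axis) of 20 activity-regulated and synaptic genes (x axis), SGC0946 arrays in red left of DMSO arrays in grey, with 1 point per array and a bar at the mean of each pair. All but Ier5 are lower with SGC0946, and the adjusted test was passed by Npas4, Fos, Pcsk1 and Vgf.

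The other genes that fell were of mixed function. Hpgd, which inactivates prostaglandins, read 6.26 and 6.66 with SGC0946 and 8.28 and 7.96 with DMSO (log2 change -1.66, SE 0.20, adjusted p = 0.0023). Cavin3, a coat protein of caveolae, read 7.11 and 7.48 with SGC0946 and 8.52 and 9.18 with DMSO (log2 change -1.55, SE 0.22, adjusted p = 0.00841). For Hpgd the difference was far above the distance between replicates, while for Cavin3 the DMSO replicates lay further apart. Tyro3, a receptor kinase of neurons and glia, read 7.95 and 7.76 with SGC0946 and 9.25 and 8.78 with DMSO (log2 change -1.16, SE 0.19). Lrfn5, a synaptic adhesion molecule, read 5.82 and 5.78 with SGC0946 and 7.40 and 6.91 with DMSO (log2 change -1.35, SE 0.24, adjusted p = 0.0423). Mast4, a kinase that binds microtubules, read 5.55 and 5.59 with SGC0946 and 6.88 and 6.99 with DMSO (log2 change -1.37, SE 0.23). For each of them the SGC0946 replicates lay close together. Kif18a, a kinesin of the mitotic spindle, fell 2.58-fold, and Sowahb, an ankyrin repeat protein, fell 2.67-fold. Slc6a17, an amino acid transporter of synaptic vesicles, fell 1.86-fold, and Atp1b1, a subunit of the sodium pump, fell 1.76-fold. Lce1m, known from skin, read 4.60 and 4.40 with SGC0946 and 5.22 and 5.67 with DMSO, and Il1f10, a cytokine gene of the interleukin-1 family, fell 1.63-fold. Of the 20 genes that fell, 4 have predicted or pseudogene symbols and are not described.

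Among genes of the mature neuronal membrane, 3 of 5 lists had medians below -0.20, and no single gene passed the test. Of 19 sodium and calcium channel genes 16 had a lower mean with SGC0946 and 6 were lower at the unadjusted cut-off (31.6%, against 4.08% of all genes), with a median of -0.35. This median was -0.15 without HB4 and -0.19 without HB3. Cacna1g, a low-voltage calcium channel, had -0.69 and Scn3a -0.65, which were -0.33 and -0.36 without HB4, and Cacnb4 had -0.68. The 25 vesicle release genes had a median of -0.21, and 14 (56.0%) lay lower without overlap, against 17.1% of all genes. Among them Cadps, which primes dense-core vesicles, had -0.40 (SE 0.10, adjusted p = 0.19) and Nrxn3, a presynaptic adhesion molecule, -0.83 (adjusted p = 0.292). The median of the list was -0.13 without HB4 and -0.38 without HB6. GABA-A receptor subunits had a median of -0.29 over 12 genes, or -0.04 without HB4 and -0.58 without HB6. Gabra5, the subunit of extrasynaptic receptors, read 5.33 and 5.59 with SGC0946 and 6.75 and 6.62 with DMSO (log2 change -1.22, SE 0.23, adjusted p = 0.0526). Gabrb1 had -1.09 and Gabra4 -0.63. Of 17 glutamate receptor genes 2 were lower at the unadjusted cut-off, led by Grin2a (-0.90, adjusted p = 0.33), and the median was -0.06. Of 25 potassium channels 5 were lower and 1, Kcnb2, was higher, with a median of -0.08.

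Markers of maturation pointed in mixed directions. Among 22 mature granule neuron genes 7 were lower and 2 higher at the unadjusted cut-off, against 4.08% and 3.39% of all genes, and the median was -0.14 (-0.06 without HB4). Slc17a7, the vesicular glutamate transporter, read 8.17 and 7.90 with SGC0946 and 8.48 and 8.79 with DMSO (log2 change -0.61, SE 0.15, adjusted p = 0.215). Nrep, 1 of the 2 higher, had 0.27 (adjusted p = 0.537), and changes across the list ran from -0.71 to 0.89. Snap25 had -0.50, which rested on HB4 at 11.09, since HB6 at 11.87 was near the DMSO arrays at 12.05 and 11.90. The 18 early postmitotic genes, among them Dcx (0.13) and Map2 (0.16), had a median of -0.06 and 1 below the unadjusted cut-off, Ncam1 (-0.28). Of 25 transcription factors of the lineage, Mef2c, which responds to calcium, read 7.95 and 8.12 with SGC0946 and 8.99 and 8.84 with DMSO (log2 change -0.88, SE 0.18, adjusted p = 0.0763). Sox4 had 0.46 and Etv1 -0.53.

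In the guidance families, Sema6d, a transmembrane semaphorin, read 8.93 and 8.76 with SGC0946 and 9.68 and 9.59 with DMSO (log2 change -0.79, SE 0.15, adjusted p = 0.0571). Robo1, the receptor for Slit, had -0.71 (SE 0.16, adjusted p = 0.145), Epha3 -0.57 and Dcc, the netrin receptor, -0.55. Each of these lay lower without overlap, as did 17.1% of all genes. The medians of the families were near zero, at -0.11 over 31 semaphorins, plexins and neuropilins and -0.07 over 36 ephrin, Slit and netrin genes. The 12 protocadherins had a median of -0.18, or -0.04 without HB4. Glycolytic genes had a median of -0.14 over 19, which was -0.08 without HB3 and -0.26 without HB1. At the unadjusted cut-off 7 were lower, against 4.08% of all genes, among them Ldha (-0.73) and the glucose transporters Slc2a3 (-0.62) and Slc2a1 (-0.54). The respiratory chain had a median of -0.03 over 26.

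Most other programmes had medians near zero. Of 32 G1/S genes 3 were higher at the unadjusted cut-off (9.38%, against 3.39% of all genes), led by Mcm7 (0.55, adjusted p = 0.298). Of 32 G2/M genes none was past it, and the medians of these lists were -0.05 and -0.06. Cdkn1a, the CDK inhibitor p21, had a log2 change of -0.55 without overlap of the arrays (SE 0.11, adjusted p = 0.0909), and Cdkn2c had 0.72. The 19 measured genes of DOT1L complexes had a median of 0.02, with Nsd2 at 0.40 and Mllt1, which encodes ENL, at -0.42. The 37 Hox genes, known targets of DOT1L in leukaemia, had a median of -0.02. Stress genes included Ddit4 (0.78, adjusted p = 0.106), Chac1 (0.73), Xbp1 (-0.39) and Hmox1 (0.57), within lists whose medians were -0.07 for the unfolded protein response and 0.07 for antioxidant genes. The p53 list had -0.08, with Bcl2, which opposes apoptosis, at -0.83 but near the DMSO arrays in HB6. Medians were 0.04 for Wnt modulators, -0.04 for the Notch pathway, -0.04 for migration genes, 0.02 for the SHH pathway and 0.01 for histone-modifying enzymes. Without a single CGN array the medians of these 12 lists lay between -0.28 and 0.17. The interferon response had 0.22 over 15 genes, or 0.07 without HB6, with 8 higher without overlap, against 17.0% of all genes, and none past the test.

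Of 22 measured genes that the study names for CGN, 2 rose, Lss and Cyp51, and none fell, with a median of 0.05. The study drew such genes from its cKO cerebella, from histone methylation in CGN and in part from its CGN arrays. Sema4a (-0.50) and Sema5a (-0.41), both semaphorins, and Pdgfrb (-0.54), the receptor of pericytes for platelet-derived growth factor, lay lower without overlap. Over all genes 17.1% did so, and Sema4a had -0.12 without HB1. Fam174b (0.39) and Tnfaip8l3 (0.34) lay higher without overlap, as did 17.0% of all genes. The direction of Fam174b is unsettled. It had -0.11 when its clusters were averaged, and the study's supplement gives it a negative log2 change in CGN. Cadps2, which acts in vesicle priming, had 0.07, the homeobox gene Otx1 -0.03, the glycosyltransferase gene B3galt5 -0.07, Pcdh17, a protocadherin, -0.02, and Ncbp3, which binds the RNA cap, 0.28. The stress factors Atf3, Atf4 and Ddit3 had -0.46, 0.13 and -0.03, and Nfe2l2, which drives antioxidant genes, had 0.02. None of these passed the test, and the remaining genes of the list are described with their pathways.

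**Figure D4:**
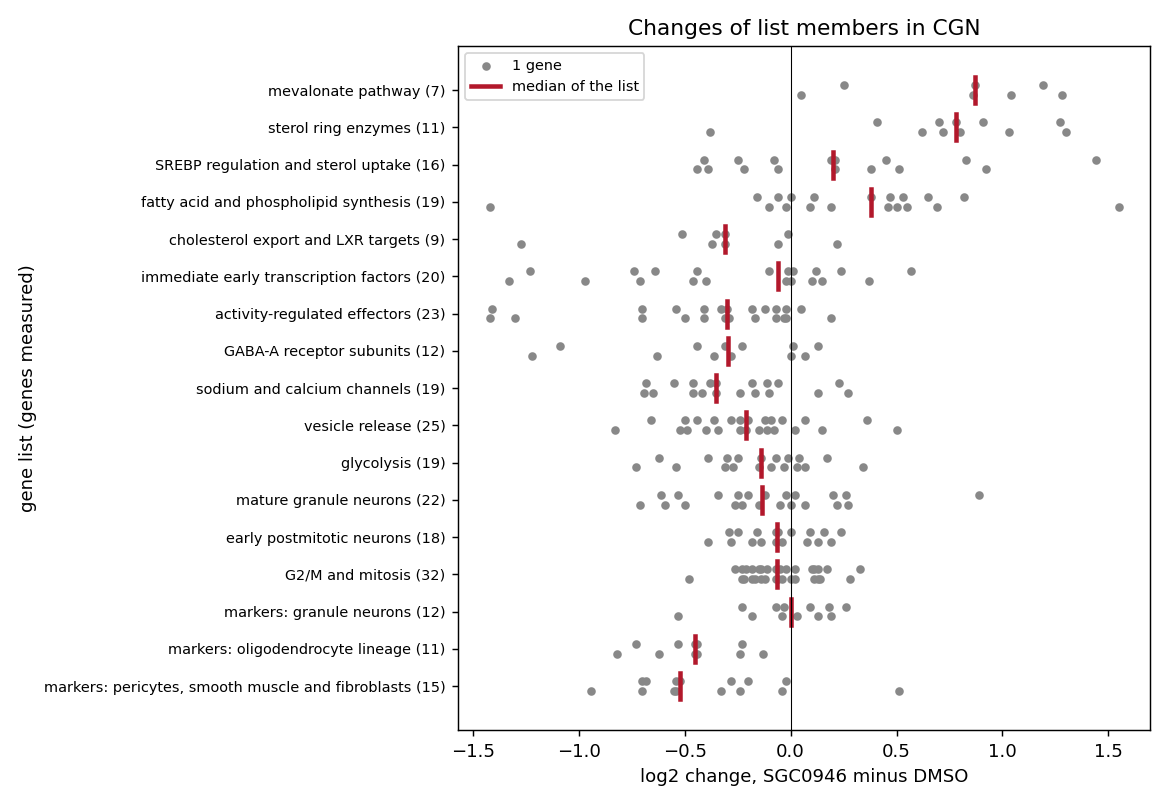
Log2 change, SGC0946 minus DMSO (x axis), of the measured members of 17 gene lists (y axis, number of genes in brackets), 1 grey point per gene and a red bar at the median. The mevalonate and sterol ring lists have the highest medians, 0.87 and 0.78, and the oligodendrocyte and pericyte marker lists the lowest shown, -0.45 and -0.52.

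Markers of other cells in the cultures had lower medians with SGC0946 for several cell types, and no marker passed the adjusted test. All 11 oligodendrocyte lineage markers had a lower mean with SGC0946, as had 51.3% of all genes, with a median of -0.45 that stayed between -0.52 and -0.36 without any 1 CGN array. Olig2 read 7.50 and 7.94 with SGC0946 and 8.37 and 8.71 with DMSO (log2 change -0.82, SE 0.20, adjusted p = 0.179). The mean over the list was 6.30 and 6.33 with SGC0946 and 6.70 and 6.86 with DMSO. Markers of pericytes, smooth muscle and fibroblasts had a median of -0.52 over 15, which was -0.15 without HB3 and -0.23 without HB4, and means of 6.00 and 6.36 with SGC0946 and 6.43 and 6.71 with DMSO. Caveolins and cavins, to which Cavin3 belongs, had -0.28 over 7, or 0.00 without HB1, and 22 collagens had -0.22, or -0.05 without HB3. Astroglial markers had -0.25 over 13, and 0.10 without HB3. Slc1a2, a glutamate transporter, had -0.90, Gfap -0.56 and Hopx 0.92, and without HB3 Gfap had -0.11 and Hopx 0.34. Their means were 7.87 and 7.96 with SGC0946 and 7.93 and 8.23 with DMSO. Microglial markers had a median of -0.09 over 14 (0.19 without HB3), interneuron markers -0.26 over 11 (-0.03 without HB4), Purkinje cell markers 0.11 over 8 (-0.20 without HB1) and endothelial markers 0.00 over 12, the last at means of 4.28 to 4.31 on every array. Choroid plexus markers had 0.07 over 11 (-0.11 without HB4). Within them Ttr, the most abundant choroid plexus transcript, read 9.03 and 5.09 with SGC0946 and 10.70 and 7.11 with DMSO, a spread within treatments larger than the difference between them. In these bulk samples fewer cells of a type cannot be told apart from less RNA per cell, and the part of other cells in the genes that fell was not tested.

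In CGNP treated for 4 h, SGC0946 raised 7 genes past the adjusted test and lowered none, and 6 of the 7 were among those that rose in CGN. They were Scd1, Msmo1, Nsdhl, Insig1, Cyp51 and Sqle. Without the arrays that hold both mice, which leaves 2 per treatment, none of the 7 passed. Leaving out 1 culture array gave 0 to 12 genes higher in CGNP, with none without the DMSO array of mouse 29. All 14 genes that rose in CGN had a positive change in CGNP as well, with a median of 0.98 in CGN and 0.75 in CGNP. The 20 genes that fell had a median of -1.34 in CGN and -0.16 in CGNP, where 14 had the same sign and none passed. Hpgd had -1.66 in CGN and 0.08 in CGNP, and Npas4 -1.33 in CGN and -0.33 in CGNP. Tested directly over all genes, no difference between the CGN and the CGNP response passed (0.0%), the smallest adjusted p being 0.178, and 1210 genes (5.46%) were past the unadjusted cut-off. Ucma (difference 1.37), Hmgcs1 (0.52), Hpgd (-1.74) and Thrsp (-1.45) are among these 1210. Without HB6, 15 genes had a higher and 24 a lower change in CGN than in CGNP at the adjusted threshold. Cell stage and exposure time differ together between the 2 cultures and cannot be told apart.

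Against the difference between Dot1l-cKO and control cerebella, the CGN response was higher for 14 genes (0.0631%) and lower for 27 (0.122%) in a fit of all 16 grouped arrays. Without HB6 these counts were 104 and 233. Of the 14, 11 belong to the sterol synthesis and regulation lists, which hold 7, 11 and 16 of the 22180 genes. Stard4 had 1.44 in CGN and -0.28 in the cKO, a difference of 1.72 (SE 0.24, adjusted p = 0.00287). Fdps (1.56), Lss (1.54), Lbr (1.39) and Trim43c (1.76) had the other differences of this size among genes with established names. On the lower side, the cardiac actin gene Actc1 had -0.67 in CGN and 3.82 in the cKO (difference -4.49), and Mymk, a gene of muscle cell fusion, had -0.15 in CGN and 1.86 in the cKO. Pax2, a marker of interneuron precursors, had -0.70 in CGN and 1.14 in the cKO. For Mast4 and Cavin3 the difference, -1.83 and -1.69, came mainly from the fall in CGN. Of the 34 genes past the test in CGN, 24 were also past it in this difference, which uses the same CGN arrays, and 4 of the 14 that rose and 5 of the 20 that fell had the same sign in the cKO. Whole cerebellum at P3 and cultured neurons differ in cell makeup and age, and the experiments appear to have been normalized apart, so these differences compare changes and no levels.

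**Figure D5:**
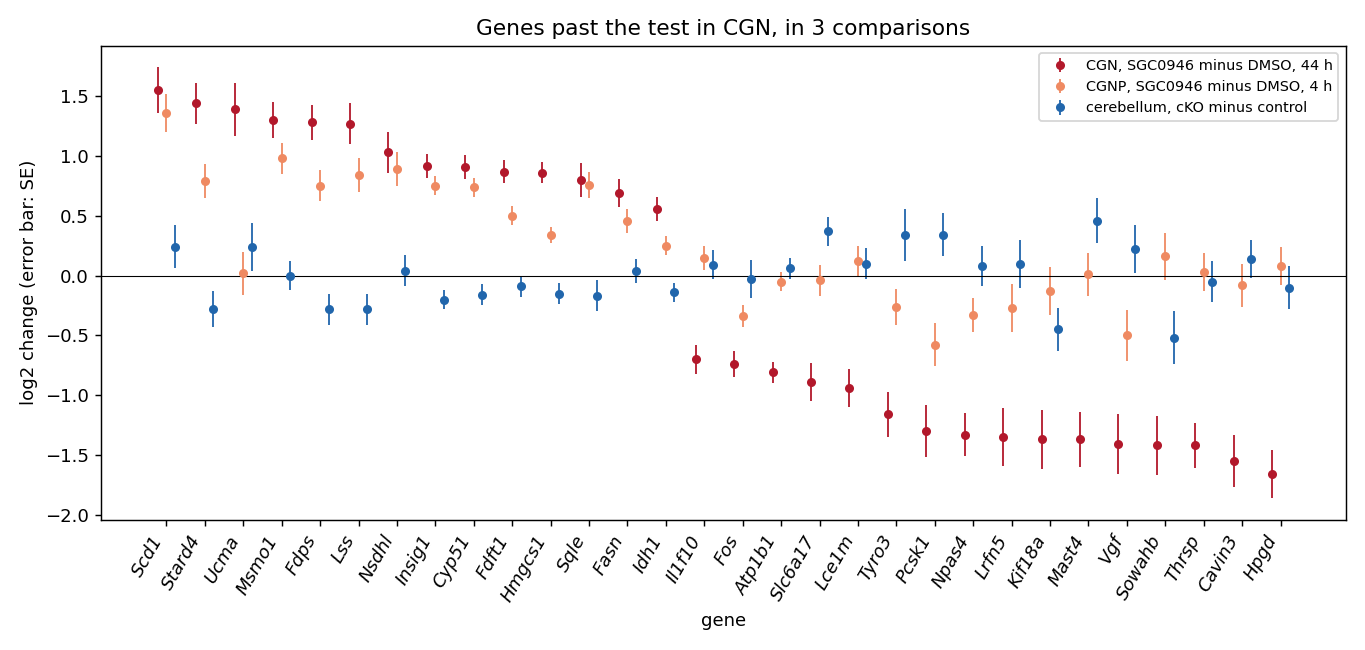
Log2 change with its standard error (y axis) of the 30 genes with established symbols past the adjusted test in CGN (x axis), in CGN (red), in CGNP (orange) and in cerebella, cKO minus control (blue). The sterol genes have positive changes in both cultures, while Hpgd, at -1.66 in CGN, has 0.08 in CGNP and -0.10 in cerebella.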

How the data were processed

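Affymetrix Mouse Gene 2.0 ST arrays were used for cultures and cerebella. The deposited log2 signals were produced by the authors in Partek by RMA (background correction, quantile step, median polish) after adjusting for GC content and probe sequence. Versions are not stated in the labels or methods. The authors' comparison tables hold fold changes and p-values, which were not used. GEO's platform annotation ties 23521 of 34472 clusters to a single gene, 1820 to several and 9131 to none listed. For 1082 of the 22180 genes with more than 1 such cluster, the brightest was taken. No dim genes were removed. The 10 culture arrays were fitted with limma 3.58.1 in R 4.3.3 (lmFit, eBayes with an intensity trend, 6 residual degrees of freedom), and p was adjusted over all genes by Benjamini-Hochberg. The labels give each CGN array a mouse number of its own, while the 3 CGNP arrays per treatment come from 2 mice shared by both treatments and were fitted as separate replicates. A permutation test of 2 against 2 cannot go below p = 0.333 and was not used.

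The arrays and the 46 gene lists (930 members, 870 measured) were chosen with earlier results of these data known. The list of genes named by the study was drawn by it in part from arrays of this series. So no list is independent evidence. The text names up to 12 genes per direction by size among those past the test, up to 5 members per list by p, all measured sterol synthesis genes, genes the study names, Dot1l and up to 5 genes each way in the difference from the cKO. Others were chosen after their values were seen. Alternatives changed the normalization, filter, gene summary, arrays, variance model, blocks and labelled days, and left out each array. Leaving out the CGNP arrays that hold both mice was added after seeing the data. Some members of the sterol lists are not reported here.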

Additional observations from a re-analysis of the deposited data

Results flagged for a closer look

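For 10 named genes the CGN response to SGC0946 and the difference between Dot1l-cKO and control cerebella were apart by the test of that difference (limma, all 16 grouped arrays). The differences, CGN minus cKO on the log2 scale, were 1.76 for Trim43c, 1.72 for Stard4, 1.56 for Fdps, 1.54 for Lss and 1.39 for Lbr, and -4.49 for Actc1, -2.01 for Mymk, -1.84 for Pax2, -1.83 for Mast4 and -1.69 for Cavin3. For Actc1, Mymk and Pax2 the larger change was that in cerebella.

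HB2 and HB5, the CGN arrays with contradictory labels, entered no comparison. Over the 14 genes that rose with SGC0946 the mean log2 signal was 9.19 in HB2 and 10.16 in HB5, where the SGC0946 arrays HB4 and HB6 had 9.86 and 9.82 and the DMSO arrays HB1 and HB3 had 8.85 and 8.71, both below HB2 and HB5. No group held 4 or more arrays, so no test for single outlying arrays was made.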

How the results depend on the processing

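The direction of all 34 genes past the test in CGN was kept in every alternative that measured them. For most alternatives this was fixed in advance and is no support. The treatments do not overlap in these genes, and changes to the CGNP arrays or the variance model leave the CGN means as they are. Counts moved more. Genes higher and lower were 0 and 0 with only the 4 CGN arrays (unadjusted 522 and 630), 0 and 0 with ordinary variance (unadjusted 767 and 829), 24 and 42 with all 16 grouped arrays, 25 and 94 with the labelled days in vitro as a term, 21 and 42 without dim genes, and 16 and 37 after a further quantile normalization. With the CGNP mouse as a replicate block (estimated correlation 0.0309), 14 were higher and 19 lower, and without the CGNP arrays that hold both mice, a choice made after seeing the data, 10 were higher and 7 lower. Leaving out 1 culture array gave 8 to 77 higher and 4 to 180 lower, the highest without HB6 and the lowest without HB1, and for genes lower also without HB4.

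For the CGN response minus the CGNP response, where none passed, the labelled days as a term gave 12 higher and 29 lower, a further quantile normalization gave 1 lower, and leaving out 1 array gave 0 to 15 higher and 0 to 24 lower, the highest without HB6. The replicate block gave 0 in both directions. For the CGN response minus the cKO difference (14 higher, 27 lower), median centring gave 36 higher, and the filter on dim genes 37 higher and 49 lower. Leaving out 1 array gave 10 to 104 higher and 10 to 233 lower, the highest again without HB6. The cause of these shifts was not tested. Of 2324 refitted values of 111 genes named in the text, 2007 kept their direction and side of the threshold, 234 no longer passed, 59 newly passed and 24 changed sign. Refits that leave the CGN means as they are could not change a sign. With the labelled days as a term, Map2 had -0.05, Mllt1 0.17, Mymk 0.30, Ttr 3.80, Atf4 -0.18, B3galt5 0.36, Nfe2l2 -0.31, Otx1 0.18 and Sema4a 0.22. List medians with the labelled days as a term included -0.83 for cholesterol export, -0.83 for Purkinje cell markers and -1.13 for interneuron markers. Collagens had -0.65, and caveolins and cavins 0.11. The mevalonate and sterol ring lists had 0.97 and 0.78. A further quantile normalization gave 0.02 for Ddit3, 0.05 for Otx1 and 0.05 for Pcdh17, and averaging clusters -0.11 for Fam174b. Leaving out 1 array gave -0.40 to 0.10 for Mymk, -0.07 to 0.17 for Pmvk, -3.82 to 0.12 for Ttr, -0.12 to 0.38 for Atf4, -0.28 to 0.13 for B3galt5, -0.21 to 0.25 for Nfe2l2, -0.37 to 0.31 for Otx1 and -0.30 to 0.25 for Pcdh17. With 2 arrays per treatment, the range of counts shows how far the called set rests on single arrays.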

Other observations

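Single genes of HB2 and HB5 lay as follows. Hmgcs1 read 11.54 in HB2 and 12.17 in HB5, Insig1 10.69 in HB2 and 11.60 in HB5, Npas4 10.11 in HB2 and 8.53 in HB5, and Pcsk1 6.86 in HB2 and 5.77 in HB5. Of the 14 genes that rose with SGC0946, HB5 was nearer to the SGC0946 mean in 14 and HB2 in 7. Of the 20 that fell, HB5 was nearer to the SGC0946 mean in 16 and HB2 in 1. The title of HB5 names the inhibitor and that of HB2 DMSO, while their descriptions name the opposite. Neither array was given a group from these values.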
